A study of Mus musculus with 8 samples.

Results

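Hmox1, whose response to the p110α inhibitor A66 differed with palmitate, was described beside 8 other genes widely known as targets of the transcription factor NRF2, namely Nqo1, Gclm, Gclc, Srxn1, Txnrd1, Slc7a11, Gsr and Osgin1. These 9 genes, of the 43629 listed, were found by matching Ensembl identifiers to mouse symbols, and all 9 passed the filter on low counts, which left 14587 genes. Hmox1 was chosen on its values in these libraries. Its levels and fold changes are therefore given as a description, with no test, whereas the other 8 genes were tested. These 8 are known NRF2 targets, picked with earlier results of these data known, so their tests are not independent of that choice. Messenger RNA was measured in mouse 3T3-L1 cells, a line of pre-adipocytes turned into adipocytes with insulin, dexamethasone, isobutylmethylxanthine and rosiglitazone, and every group shared this differentiation. On day 8 the cultures were left untreated or received, for 24 h, 2 μM A66, 0.5 mM palmitate bound to albumin, or palmitate plus A66, with 2 libraries in each of the 4 groups. The study's methods give 1 μM A66 and name DMSO as the vehicle of the control, whereas the labels call the control untreated. The cells are a single line in culture, and no measurement here checks which cultures received the inhibitor, so every direction rests on the treatment in the sample labels.

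NRF2 is a transcription factor that is held in the cytoplasm and sent for degradation by KEAP1. Oxidants and electrophiles modify KEAP1, and NRF2 then enters the nucleus, pairs with a small MAF protein and binds antioxidant response elements near genes of glutathione synthesis, thioredoxin reduction, NADPH supply and detoxification. BACH1 is a repressor that competes for the same elements, and it is best known for holding down Hmox1, the gene of heme oxygenase 1, which breaks heme into biliverdin, carbon monoxide and iron. Slc7a11 and Hmox1 are also known targets of other stress factors, ATF4 among them, and Hmox1 of heat shock factors.

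The promoters of Gclm, Srxn1 and Slc7a11 are shown because these are the 3 members that passed the test in at least 1 comparison. The sequences are from RefSeq (GRCm38.p6), run 5′ to 3′ on the strand of the gene, and hold 250 bases before to 50 bases after a start site. The table used gave windows for 6 of the 9 members, and Hmox1, Gclc and Gsr had none there. Capitals mark matches to 3 motifs searched on both strands, which are TGACNNNGC (the core of the antioxidant response element, found in 12.4% of 32851 windows of this length), TGANTCAGC (the element with an AP-1 site inside it, in 1.19%) and TGATGCAA (the core of the C/EBP-ATF element, in 0.895%). The first and the second motif can overlap each other. The Gclm window, at chr3:122245307-122245606 on the plus strand, held 1 match to TGACNNNGC, on the opposite strand. The Srxn1 window, at chr2:152105274-152105573 on the plus strand, held 1 match to TGANTCAGC, beginning 45 bases before the start, and 1 to TGACNNNGC after the start. The Slc7a11 window, at chr3:50443564-50443863 on the minus strand, held 2 matches to TGATGCAA, 1 on each strand, and none to the others.
Gclm: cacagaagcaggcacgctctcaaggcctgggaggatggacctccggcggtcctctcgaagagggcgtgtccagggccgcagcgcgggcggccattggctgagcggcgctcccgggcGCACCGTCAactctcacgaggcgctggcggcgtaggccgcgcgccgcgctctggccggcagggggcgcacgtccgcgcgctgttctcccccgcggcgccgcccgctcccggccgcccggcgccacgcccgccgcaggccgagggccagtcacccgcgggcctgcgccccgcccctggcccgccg
Srxn1: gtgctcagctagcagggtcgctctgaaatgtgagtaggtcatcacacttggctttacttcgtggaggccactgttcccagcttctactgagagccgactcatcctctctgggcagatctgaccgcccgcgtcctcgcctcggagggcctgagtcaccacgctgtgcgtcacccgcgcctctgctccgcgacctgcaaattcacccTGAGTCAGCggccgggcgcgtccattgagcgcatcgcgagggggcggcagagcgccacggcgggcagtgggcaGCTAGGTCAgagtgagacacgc
Slc7a11: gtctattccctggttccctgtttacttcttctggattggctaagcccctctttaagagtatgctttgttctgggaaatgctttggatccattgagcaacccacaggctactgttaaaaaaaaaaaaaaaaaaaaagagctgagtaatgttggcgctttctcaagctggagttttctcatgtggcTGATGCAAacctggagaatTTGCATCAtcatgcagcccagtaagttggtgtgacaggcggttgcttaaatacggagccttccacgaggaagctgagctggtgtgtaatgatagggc
Of the other members with a window, Osgin1 had 1 match to TGANTCAGC, the 3 windows of Txnrd1 had 1 match to TGACNNNGC among them, and Nqo1 had no match. A match describes letters only, and these windows leave out distant elements.

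The libraries held between 42247091 and 57529803 counts, so that 3 counts, the smallest amount taken as detected, lay between 0.0521 and 0.0710 CPM for counting error alone. CPM are counts per 1000000 counts of a library. They were scaled by TMM, which corrects these totals for the makeup of each library. Differences are given on the log2 scale with the standard error of the fit (±), and the 8 members were tested with edgeR's quasi-likelihood test, with p adjusted by Benjamini-Hochberg across the 14587 genes and a call at an adjusted p under 0.05. Replicate libraries differed by more than the noise of counting. They are described as biological repeats without further detail, so p-values measure the spread between these cultures only. All 12 adipocyte markers were detected in every group. Because RNA was taken from whole cultures, fewer cells of a kind and less RNA per cell cannot be told apart.

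Hmox1 was highest in cells given palmitate plus A66 and lowest in cells given A66 alone. Hmox1 (ENSMUSG00000005413, chromosome 8, 75093621 to 75100589, plus strand of GRCm38) had 374 and 401 CPM untreated, 352 and 358 CPM with A66, 394 and 393 CPM with palmitate and 494 and 489 CPM with palmitate plus A66. Both libraries with palmitate plus A66 lay above the other 6, both A66 libraries lay below the other 6, and the palmitate libraries fell between the untreated ones. The group means were 387 ± 19.3 CPM (SD, n = 2) untreated, 355 ± 4.33 CPM with A66, 393 ± 0.466 CPM with palmitate and 492 ± 3.64 CPM with palmitate plus A66. An SD of 2 libraries is itself uncertain, so these spreads are not used to say which groups differ. The log2 difference with A66 was -0.13 ± 0.042 without palmitate and 0.32 ± 0.041 with palmitate, the latter 1.25 times the level. With palmitate it was 0.022 ± 0.042 in cells without A66 and 0.47 ± 0.042 in cells with A66. The A66 effect was thus more positive with palmitate by 0.45 ± 0.059 on the log2 scale. This difference chose the gene, so nothing is read from its size.

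**Figure D1:**
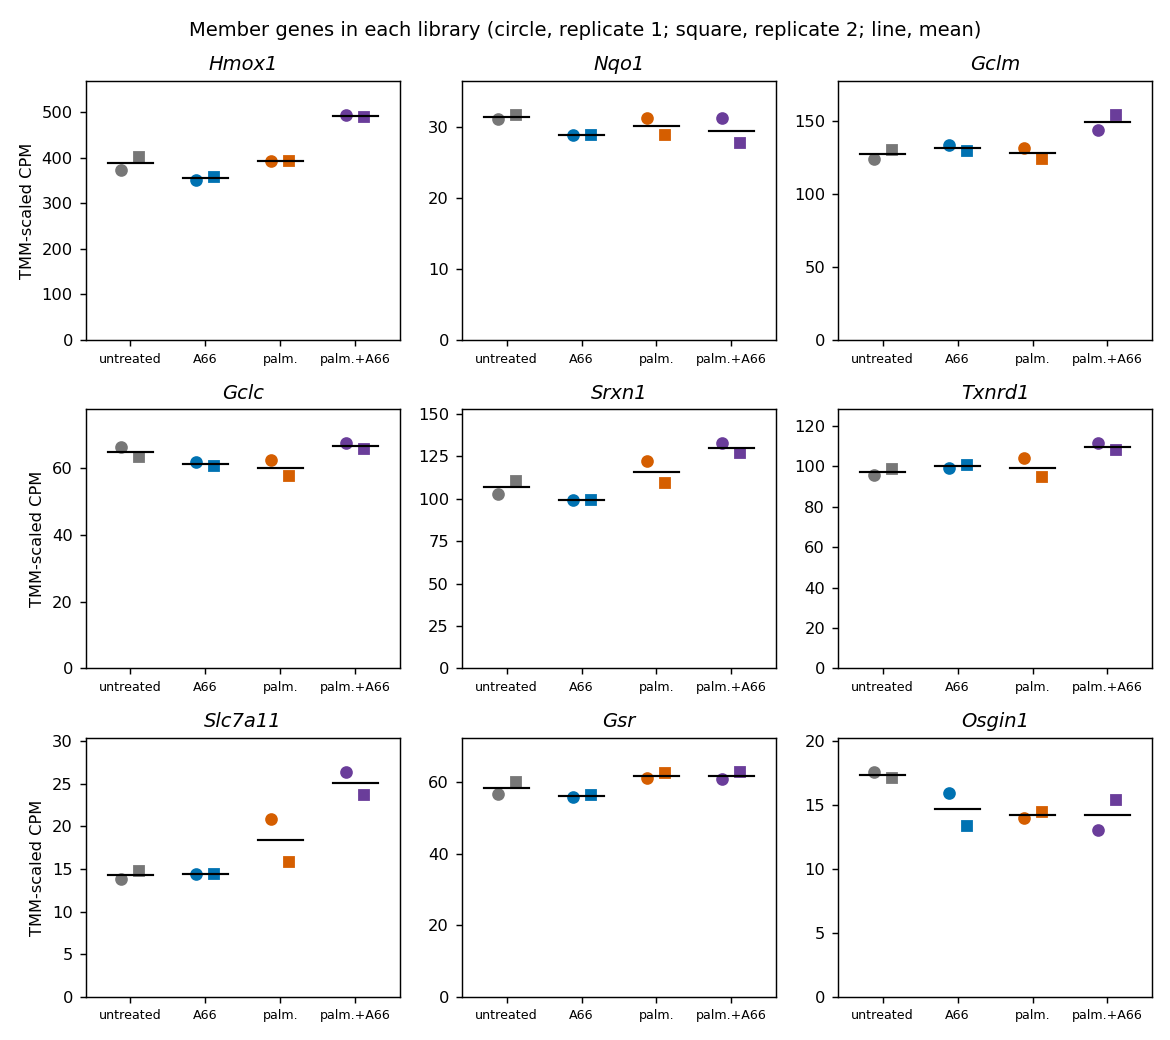
TMM-scaled CPM (vertical axis, from 0) of the 9 genes in each library by treatment, with circles for replicate 1, squares for replicate 2 and lines for the mean of the group. Hmox1 reaches 494 and 489 CPM with palmitate plus A66, and Slc7a11 and Srxn1 are also highest in those libraries.

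Macrophages also express Hmox1, and their markers were measured at a low level, highest in the group where Hmox1 was highest and lowest in untreated cells. The 10 macrophage markers summed to 13.5 to 14.3 CPM untreated, 14.4 to 16.0 CPM with A66, 15.5 to 16.7 CPM with palmitate and 18.1 to 19.1 CPM with palmitate plus A66. The defining marker Adgre1 was at 0 in every group, and 4 to 5 of the 10 were under 3 counts in both libraries of a group. With A66 in palmitate-treated cells 3 of the 4 that were tested were at an unadjusted p under 0.05 (against 14.4% of all genes) and edgeR and DESeq2 called 0, with a median log2 difference of 0.39 and a range of -0.50 to 0.63. Over the 4 comparisons Cd68, a lysosomal protein, was the single edgeR call among them, named after its value was seen. It rose with palmitate in A66-treated cells (against 1.46% of all genes) from 2.65 and 3.28 CPM to 5.40 and 5.74 CPM (0.91 ± 0.16, edgeR adjusted p = 0.00140), and lost its call without A66 replicate 1 (adjusted p = 0.0678). The part of such cells in the Hmox1 values was not tested.

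Levels between genes were compared per length, as RPKM, the mean CPM of a group per kilobase of merged exons. Hmox1 stood at 221 RPKM in untreated cells and, over all libraries, was above 99.2% of the 14463 tested genes with a length. Srxn1 came next among the members, at 37.9 RPKM in untreated cells. Gsr, Nqo1 and Gclm followed at 21.2, 20.3 and 20.2 RPKM. Gclc had 17.2 RPKM and Txnrd1 had 13.7 RPKM. Osgin1 had 6.48 RPKM, and Slc7a11, at 1.03 RPKM, was above 28.4% of the tested genes over all libraries. Heme oxygenase 1 transcripts thus had the highest level of the 9 in these adipocytes.

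In palmitate-treated cells, A66 raised Slc7a11 and Gclm, and no member fell with a call. Of the 8 members tested, edgeR called 2 higher and 0 lower, where 0.973% of all genes were called higher, 1.84% lower and 2.81% in either direction. DESeq2 also called 2, and at an unadjusted p under 0.05 edgeR gave 5 of the 8, against 14.4% of all genes. For 5 of the 8 both libraries with palmitate plus A66 lay above both palmitate libraries, and for 0 they lay below, orders that 21.9% and 22.4% of all genes showed. The median log2 difference of the 8 was 0.15, against -0.00079 over all genes.

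Slc7a11 (ENSMUSG00000027737, chromosome 3, 49892526 to 50443614) encodes the light chain of the transporter that brings in cystine for glutathione synthesis. It had 13.8 and 14.7 CPM untreated, 14.4 and 14.4 CPM with A66, 20.9 and 15.8 CPM with palmitate and 26.4 and 23.7 CPM with palmitate plus A66. The untreated and A66 libraries overlapped, the palmitate libraries lay above them and differed most between replicates, and those with both agents lay above all others. With A66 in the presence of palmitate it rose (0.44 ± 0.097, edgeR adjusted p = 0.0109). This call was lost without palmitate replicate 2 (0.26, edgeR adjusted p = 0.229) and without palmitate plus A66 replicate 1 (edgeR adjusted p = 0.151). Over all alternatives its adjusted p ran from 2.08e-05 to 0.229.

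Gclm (ENSMUSG00000028124, chromosome 3, 122245557 to 122270732) encodes the modifier subunit of glutamate-cysteine ligase, the rate-limiting enzyme of glutathione synthesis. Its libraries held 124 and 130.1 CPM untreated, 133 and 129 CPM with A66, 132 and 124 CPM with palmitate and 144 and 154 CPM with palmitate plus A66. The first 3 groups overlapped and the last lay above them. Gclm rose with A66 in palmitate-treated cells (0.22 ± 0.046, edgeR adjusted p = 0.00774), and lost its call without palmitate replicate 2 (edgeR adjusted p = 0.130) or palmitate plus A66 replicate 2 (edgeR adjusted p = 0.155), in a range of 1.98e-04 to 0.155 over the alternatives. A processed pseudogene, Gm6061, lies within the Gclm locus on the same strand and held 66 to 105 counts, against 5273 to 7682 for Gclm.

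Gclc, Srxn1 and Txnrd1 were also higher with A66 in palmitate-treated cells, without passing the test. Gclc (chromosome 9, 77754535 to 77794485), the catalytic subunit of that ligase, had 62.4 and 57.7 CPM with palmitate and 67.5 and 65.8 CPM with palmitate plus A66 (0.15 ± 0.049, edgeR adjusted p = 0.116). Srxn1, which repairs over-oxidised peroxiredoxins, had 122 and 109 CPM against 133 and 127 CPM (0.16 ± 0.050, edgeR adjusted p = 0.0888). Txnrd1 (chromosome 10, 82833951 to 82897712), the cytosolic thioredoxin reductase, had 104 and 94.7 CPM against 111 and 108 CPM (0.14 ± 0.046, edgeR adjusted p = 0.116). In each of these genes the groups did not overlap, and the palmitate replicates lay farther apart than the replicates with both agents. Srxn1 passed without the filter on low counts (edgeR adjusted p = 0.0213), and all 3 passed without palmitate replicate 1, with edgeR adjusted p of 0.0497 for Gclc, 0.00973 for Srxn1 and 0.0217 for Txnrd1. Over the alternatives the adjusted p reached 0.608, 0.641 and 0.660 for these genes in that order, and with single libraries left out the differences ranged over 0.096 to 0.21, 0.085 to 0.25 and 0.077 to 0.21. Nqo1, Gsr and Osgin1, whose libraries overlapped, had log2 differences of -0.031, 0.0018 and -0.0011 (edgeR adjusted p = 0.889, 0.994 and 0.997).

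Without palmitate, A66 gave no call among the 8, while edgeR called 1.43% of all genes, 0.795% higher and 0.638% lower. DESeq2 also called 0, and 2 of the 8 had an unadjusted p under 0.05 in edgeR, against 12% of all genes, with Srxn1 (-0.11 ± 0.051, edgeR adjusted p = 0.408) and Osgin1 (-0.24 ± 0.096, edgeR adjusted p = 0.283) both at lower levels. With single libraries left out these differences ranged over -0.16 to -0.055 for Srxn1 and -0.37 to -0.12 for Osgin1. The A66 libraries lay below the untreated ones for 5 of the 8, an order that 22.1% of all genes showed, and above them for 1, Txnrd1, against 20.3%. The median log2 difference was -0.067, against -0.0040 over all genes. Nqo1 (chromosome 8, 107388225 to 107403206), a quinone reductase often used as a readout of NRF2, had 31.1 and 31.8 CPM untreated and 28.9 and 28.9 CPM with A66 (-0.12 ± 0.066, edgeR adjusted p = 0.477).

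**Figure D2:**
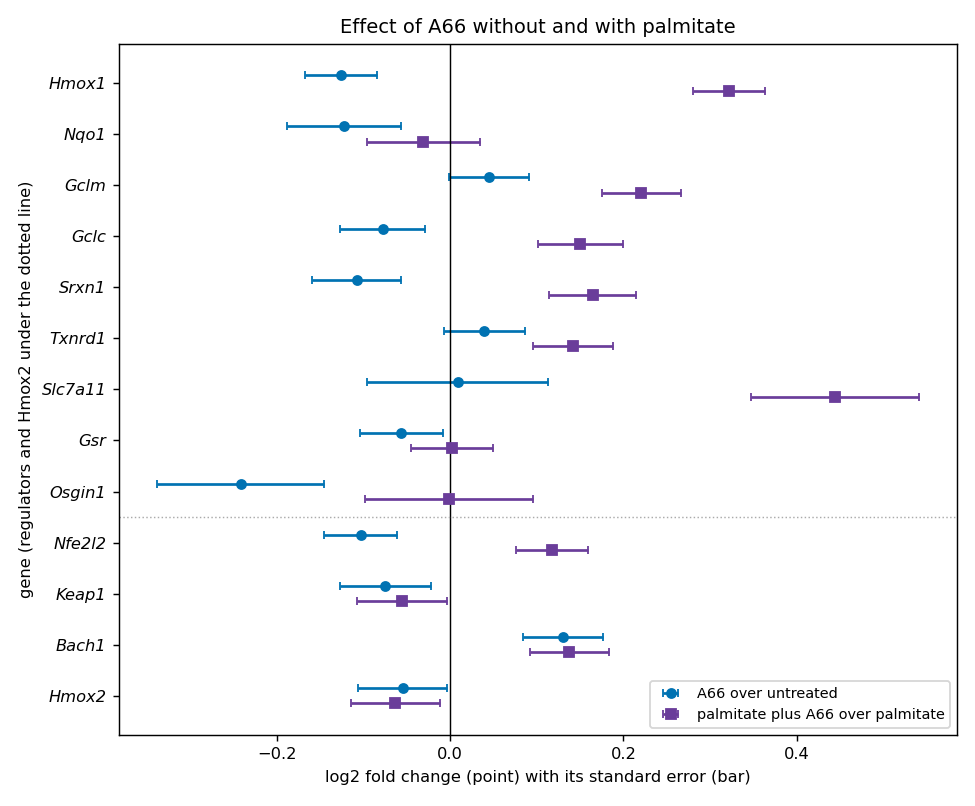
Log2 fold change of A66 (horizontal axis) in cells without palmitate (circles, A66 over untreated) and with palmitate (squares, palmitate plus A66 over palmitate), with bars for the standard error of the edgeR fit. Hmox1, which was chosen for the difference between its circle and its square, lies at -0.13 and 0.32. For each of the 8 other members the square lies to the right of the circle, an order that 50.6% of all genes showed.

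The A66 effect was more positive with palmitate than without it in all 8 members tested, by a log2 difference of 0.058 (Gsr) to 0.44 (Slc7a11) with a median of 0.20. With each library left out in turn the difference was 0.25 to 0.65 for Slc7a11, 0.11 to 0.37 for Osgin1, 0.00021 to 0.18 for Nqo1, 0.035 to 0.17 for Txnrd1, 0.014 to 0.098 for Gsr, 0.12 to 0.22 for Gclm, 0.17 to 0.29 for Gclc and 0.19 to 0.36 for Srxn1. Of all genes, 50.6% had a positive difference, with a median of 0.0021. None of the 8 differences passed the test. DESeq2 called 0 of the 8, but it gave an adjusted p to only 3275 genes for the interaction. A member without one could not be called, so nothing is read from that 0. edgeR called 0 of the 8, where it called 0.00686% of all genes, whereas 4 had an unadjusted p under 0.05 in edgeR, against 7.92% of all genes. These were Srxn1 (0.27 ± 0.072, adjusted p = 0.300), Gclc (0.23 ± 0.070, adjusted p = 0.407), Slc7a11 (0.44 ± 0.14, adjusted p = 0.444) and Gclm (0.18 ± 0.065, adjusted p = 0.495). Without the filter on low counts Srxn1 passed (0.26, edgeR adjusted p = 0.0223), while its adjusted p reached 0.757 under the other alternatives.

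Palmitate in A66-treated cells raised 3 members, Slc7a11, Srxn1 and Gclm. Of the 8, edgeR called 3 higher and 0 lower, against 1.46% higher and 1.27% lower of all genes (2.73% in either direction). DESeq2 also called 3, and 6 had an unadjusted p under 0.05 in edgeR, against 14.6% of all genes. Both libraries with palmitate plus A66 lay above both A66 libraries for 6 of the 8 and below them for 0, orders that 23.2% and 23.4% of all genes showed. The median log2 difference of the 8 was 0.14, against 0.00044 over all genes. Slc7a11 rose (0.80 ± 0.10, edgeR adjusted p = 2.27e-05) to 1.74 times its level with A66 alone. It was called under each of the 15 alternatives, with a highest adjusted p of 0.00114.

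Srxn1 (ENSMUSG00000032802, chromosome 2, 152105516 to 152111376) had 103 and 111 CPM untreated, 99.4 and 99.0 CPM with A66, 122 and 109 CPM with palmitate and 133 and 127 CPM with palmitate plus A66. The A66 libraries were the lowest, the palmitate libraries overlapped the untreated ones, and those with both agents were the highest. Srxn1 rose with palmitate in A66-treated cells (0.39 ± 0.051, edgeR adjusted p = 4.82e-05), with a highest adjusted p of 0.00193 over the 15 alternatives. Gclm rose as well (0.18 ± 0.046, edgeR adjusted p = 0.0282). The Gclm call was lost without A66 replicate 1 (adjusted p = 0.142), A66 replicate 2 (0.229) or palmitate plus A66 replicate 2 (0.287), in a range of 0.00399 to 0.287 in edgeR and DESeq2.

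The remaining members did not pass the threshold for palmitate in A66-treated cells. Gsr (chromosome 8, 33652523 to 33698163), which reduces oxidised glutathione with NADPH, had 55.9 and 56.4 CPM with A66 and 60.7 and 62.9 CPM with both agents (0.14 ± 0.048, edgeR adjusted p = 0.145). Txnrd1 had 99.1 and 101 CPM against 111 and 108 CPM (0.13 ± 0.047, edgeR adjusted p = 0.142), and Gclc 62.0 and 60.8 CPM against 67.5 and 65.8 CPM (0.12 ± 0.049, edgeR adjusted p = 0.236). In these 3 genes the groups did not overlap. Nqo1 gave 0.030 ± 0.066 (edgeR adjusted p = 0.897), and Osgin1 -0.046 ± 0.098 (edgeR adjusted p = 0.891), with overlapping libraries in both.

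**Figure D3:**
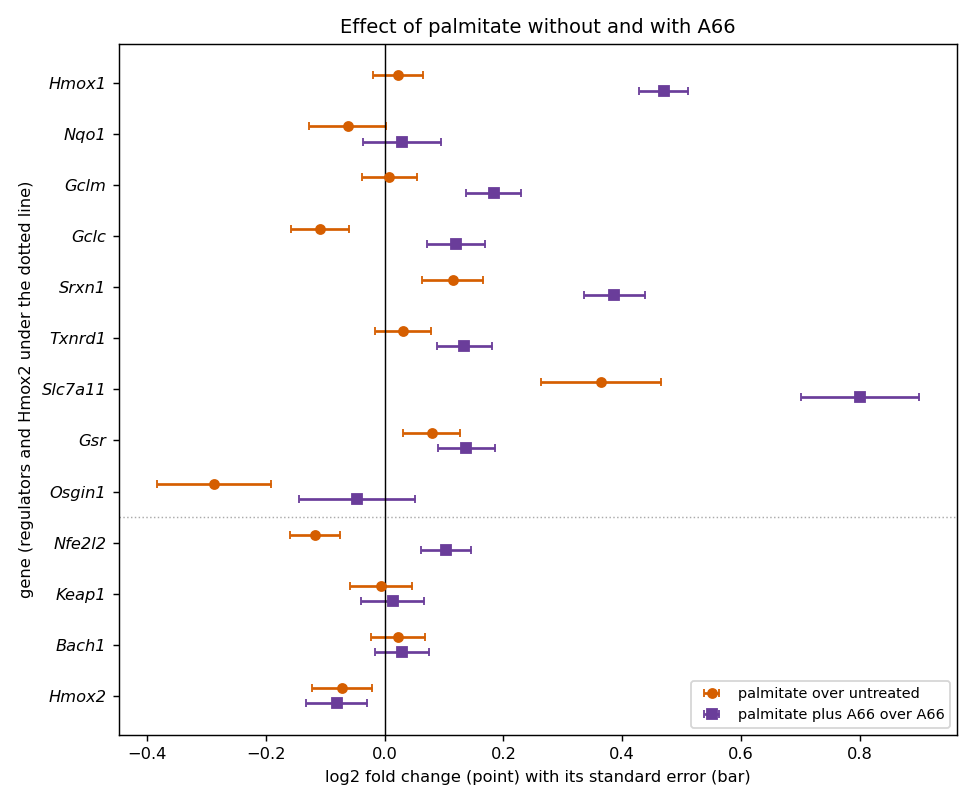
Log2 fold change of palmitate (horizontal axis) in cells without A66 (circles, palmitate over untreated) and with A66 (squares, palmitate plus A66 over A66), with bars for the standard error of the edgeR fit. Slc7a11 is farthest to the right at 0.80 with A66 and 0.36 without, and Osgin1 is farthest to the left at -0.29 without A66.

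In cells without A66, palmitate gave no call among the 8, while edgeR called 1.17% of all genes, 0.631% higher and 0.542% lower. DESeq2 also called 0, and 4 had an unadjusted p under 0.05 in edgeR, against 12% of all genes. The palmitate libraries lay above the untreated ones for 2 of the 8 and below them for 2, orders that 20.4% and 20.2% of all genes showed. Slc7a11 (0.36 ± 0.10, edgeR adjusted p = 0.0911) passed without palmitate replicate 2 (0.55, adjusted p = 0.00171) and without the filter on low counts (0.37, adjusted p = 0.00285), while without palmitate replicate 1 its difference was 0.15 (adjusted p = 0.728), the highest p of its alternatives. Srxn1 gave 0.11 ± 0.051 (edgeR adjusted p = 0.358), and Gclc -0.11 ± 0.049 (edgeR adjusted p = 0.370), with ranges of 0.028 to 0.20 and -0.17 to -0.051 when single libraries were left out. Osgin1 (chromosome 8, 119434124 to 119446256), an oxidative stress-induced growth inhibitor, had 17.6 and 17.1 CPM untreated, 15.9 and 13.3 CPM with A66, 14.0 and 14.5 CPM with palmitate and 13.0 and 15.4 CPM with palmitate plus A66. Its untreated libraries lay above all 6 others, with a palmitate difference of -0.29 ± 0.096 (edgeR adjusted p = 0.179). This comparison and that of A66 without palmitate share the untreated libraries, and both comparisons of the combined treatment share its libraries.

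Among the members, both libraries with palmitate plus A66 lay above the other 6 for 4 of the 8 other than Hmox1, namely Gclm, Srxn1, Txnrd1 and Slc7a11, an order that 7.9% of all genes showed. Hmox1 had it too, but was chosen on these libraries and is not counted. Gclc had 66.3 and 63.4 CPM untreated, so that its libraries with both agents overlapped the untreated ones. Over the 8 libraries, log2 CPM of Srxn1 had a Pearson correlation of 0.92 with Hmox1, Slc7a11 0.89, Gclm 0.81, Txnrd1 0.79, Gsr 0.73 and Gclc 0.59. Nqo1 had -0.0075 and Osgin1 -0.28. These values describe 8 libraries that share 4 treatments.

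The central regulators of the pathway passed the test in no comparison. Nfe2l2, the gene of NRF2, had 132 and 129 CPM untreated, 121 and 122 CPM with A66, 124 and 117 CPM with palmitate and 129 and 132 CPM with palmitate plus A66. Its A66 libraries lay below the untreated ones and its libraries with both agents above the palmitate ones, with log2 differences of -0.10 ± 0.042 (edgeR adjusted p = 0.296) and 0.12 ± 0.042 (edgeR adjusted p = 0.159). The difference of these effects was 0.22 ± 0.060 (edgeR adjusted p = 0.310, unadjusted p = 0.00124). Keap1 lay between 41.2 and 44.9 CPM in all libraries, with log2 differences of -0.075 to 0.014 in the 4 comparisons of groups. Bach1 had 62.8 and 60.6 CPM untreated, 66.6 and 68.4 CPM with A66, 63.3 and 61.9 CPM with palmitate and 69.7 and 68.1 CPM with palmitate plus A66. Its libraries with A66 were higher both without palmitate (0.13 ± 0.046, edgeR adjusted p = 0.210) and with it (0.14 ± 0.046, edgeR adjusted p = 0.121).

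Of 15 regulators and partners of NRF2 tested, 2 were called in A66-treated cells given palmitate, both higher, and 1 in palmitate-treated cells given A66, also higher (edgeR, against 1.46% and 0.973% of all genes). Sqstm1, the autophagy receptor p62 that can bind KEAP1, had 641 and 638 CPM with A66, 667 and 667 CPM with palmitate and 759 and 726 CPM with both agents. It rose with palmitate in A66-treated cells (0.21 ± 0.042, edgeR adjusted p = 0.00389) and with A66 in palmitate-treated cells (0.15 ± 0.042, edgeR adjusted p = 0.0477). Nfe2l1, a relative of NRF2, rose with palmitate in A66-treated cells (0.16 ± 0.041, edgeR adjusted p = 0.0381). It had 853 and 808 CPM untreated, 772 and 776 CPM with A66, 881 and 878 CPM with palmitate and 865 and 860 CPM with both agents. Its libraries with both agents thus lay below those with palmitate alone. The first of these 3 calls was lost without either A66 library or without palmitate plus A66 replicate 1 (difference of 0.18 to 0.25 over the alternatives). The second was lost without any 1 library of the groups compared (0.12 to 0.18). It was also lost without either A66 library, which that comparison does not use. The third was lost without any 1 library of the groups compared (0.14 to 0.16).

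Of 26 genes of heme and iron handling tested, edgeR called 1 lower with A66 and 1 higher with palmitate. It called 0 with A66 in palmitate-treated cells and 1 higher with palmitate in A66-treated cells. Over all genes the shares were 0.638% lower, 0.631% higher, 2.81% in either direction and 1.46% higher in the same order. For A66 in palmitate-treated cells 6 of the 26 were at an unadjusted p under 0.05 in edgeR, against 14.4% of all genes. DESeq2 called 1 in that comparison. Alas1, the first enzyme of heme synthesis, had 117 and 117 CPM untreated and 99.9 and 102 CPM with A66 (-0.22 ± 0.044, edgeR adjusted p = 0.0109). Slc40a1, the iron exporter ferroportin, had 23.4 and 23.1 CPM untreated and 28.1 and 28.9 CPM with palmitate (0.30 ± 0.061, edgeR adjusted p = 0.0140), and rose with palmitate in A66-treated cells too (0.25 ± 0.061, edgeR adjusted p = 0.0207). Leaving out any 1 library of the groups compared ended these 3 calls, at adjusted p up to 0.183, 0.0764 and 0.169. Hmox2, the constitutive heme oxygenase, had 48.3 and 48.2 CPM untreated, 47.3 and 45.5 CPM with A66, 44.9 and 46.9 CPM with palmitate and 44.6 and 43.2 CPM with palmitate plus A66, with no call in any of the 4 comparisons (edgeR adjusted p of 0.515 to 0.732). Hmox2 overlaps Cdip1 on the opposite strand, and as the sources used here do not say whether strand was used in counting, its values are uncertain.

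Further genes of glutathione handling held calls in both directions. With A66 alone 2 of 33 tested were called (against 1.43% of all genes), Gstz1 lower (-0.17 ± 0.041, edgeR adjusted p = 0.0371, up to 0.263 without single libraries) and Gsta4, a glutathione transferase, higher (0.20 ± 0.048, edgeR adjusted p = 0.0371, up to 0.371). With palmitate alone 2 were called (against 1.17%), Gsta4 higher (0.20 ± 0.047, edgeR adjusted p = 0.0321, up to 0.339) and Abcc5, an exporter of organic anions, lower (-0.17 ± 0.039, edgeR adjusted p = 0.0305, up to 0.249). Of the same list, 3 were called with A66 in palmitate-treated cells, Abcc1 and Abcc4 higher and Gstz1 lower, against 0.973% higher and 1.84% lower of all genes. Gstz1, a glutathione transferase of tyrosine breakdown, had 178 and 187 CPM with palmitate and 148 and 149 CPM with both agents (-0.29 ± 0.041, edgeR adjusted p = 2.67e-04), and was called under all 15 alternatives. Abcc1, an exporter of glutathione conjugates, had 197 and 189 CPM with palmitate and 217 and 215 CPM with both agents (0.16 ± 0.041, edgeR adjusted p = 0.0325, up to 0.267 without single libraries). With palmitate in A66-treated cells 3 of the list were called, all higher (against 1.46% of all genes), namely Abcc1 (0.19 ± 0.041, edgeR adjusted p = 0.00856), Abcc4 (0.17 ± 0.045, edgeR adjusted p = 0.0350) and Slc3a2 (0.16 ± 0.041, edgeR adjusted p = 0.0307), the heavy chain that partners Slc7a11. The 3 calls with palmitate were lost without A66 replicate 1, at adjusted p of 0.208, 0.464 and 0.445. Abcc4, a further exporter of organic anions that was named after its value was seen, gave 0.18 ± 0.045 (edgeR adjusted p = 0.0326) for A66 in palmitate-treated cells. That call was lost with library-size scaling (adjusted p = 0.0692), without palmitate replicate 2 (0.344) and without either library given both agents (0.263 and 0.0695).

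Of 15 genes that supply NADPH, 3 rose with palmitate in A66-treated cells and 0 fell with a call, against 1.46% and 1.27% of all genes. Mthfd2, a mitochondrial enzyme of folate metabolism, had 87.2 and 89.7 CPM with A66 and 119 and 117 CPM with both agents (0.42 ± 0.050, edgeR adjusted p = 1.32e-05). Pgd, of the pentose phosphate pathway, had 216 and 216 CPM against 259.7 and 252 CPM (0.25 ± 0.042, edgeR adjusted p = 9.90e-04), and the calls of Mthfd2 and Pgd held under all 15 alternatives, up to adjusted p of 0.00116 and 0.0360. The third was malic enzyme 1, Me1 (0.19 ± 0.042, edgeR adjusted p = 0.0108), named after its value was seen. Its difference was 0.17 to 0.21 over the alternatives, and its call was lost without any 1 library of the groups compared. Me1 had 261 and 278 CPM untreated, 255 and 247 CPM with A66, 296 and 289 CPM with palmitate and 283 and 290 CPM with both agents. G6pdx, the first enzyme of the pentose phosphate pathway, fell with A66 alone, from 131 and 129 CPM to 108 and 110.4 CPM (-0.25 ± 0.041, edgeR adjusted p = 0.00191, and 0.0772 without A66 replicate 1).

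Of 34 further detoxification genes, edgeR called 3 higher and 0 lower with A66 in palmitate-treated cells (against 0.973% and 1.84% of all genes) and 1 higher and 1 lower with A66 alone (against 0.795% and 0.638%). Ces1d, a carboxylesterase, rose in both, with palmitate (0.20 ± 0.043, edgeR adjusted p = 0.00883, and 0.121 without palmitate plus A66 replicate 2) and without it (0.24 ± 0.043, edgeR adjusted p = 0.00387, and 0.0831 without untreated replicate 1 or 0.145 without A66 replicate 1). The other two with palmitate were Esd, an esterase that acts on S-formylglutathione (0.20 ± 0.046, edgeR adjusted p = 0.0182, up to 0.310 without single libraries), and Ephx2, an epoxide hydrolase named after its value was seen (0.17 ± 0.043, edgeR adjusted p = 0.0333, up to 0.183). The lower call with A66 alone was G6pdx, which both lists hold.

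With palmitate alone edgeR called 1 of these genes (against 1.17% of all genes), Aox1, an aldehyde oxidase, which fell from 169 and 163 CPM to 126 and 138 CPM (-0.33 ± 0.046, edgeR adjusted p = 1.75e-04) and was called under all 15 alternatives. Lrp8, a lipoprotein receptor, was among 3 that rose with palmitate in A66-treated cells (against 1.46% of all genes), from 1.95 and 3.03 CPM to 6.12 and 4.70 CPM (1.13 ± 0.19, edgeR adjusted p = 7.12e-04, and 0.0525 without A66 replicate 1). The others were Esd (0.27 ± 0.046, edgeR adjusted p = 0.00123, and 0.0525 without A66 replicate 1), and Me1. Of 19 thioredoxin and peroxiredoxin genes edgeR called 0 in every comparison, with 1 to 3 at an unadjusted p under 0.05 in each, and DESeq2 called 1 for A66 without palmitate and 0 in the other comparisons. Over all genes 0.00686% to 2.81% were called and 7.92% to 14.6% were at an unadjusted p under 0.05, so that 0 of a list this short is near the background and is not a result about these genes. Of 7 enzymes of superoxide and peroxide, edgeR also called 0 (0 to 2 at an unadjusted p under 0.05), and DESeq2 called 1 for A66 without palmitate and 0 otherwise, against the same shares.

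The ATF4 and heat shock lists were described because their factors are known to act on Slc7a11 and Hmox1. Of 25 genes of the ATF4 response, 8 were called higher and 0 lower with palmitate in A66-treated cells (against 1.46% and 1.27% of all genes), with a median log2 difference of 0.11. Without A66 replicate 1 the count was 4. Ppp1r15a, which restores translation after stress, had 81.4 and 83.1 CPM with A66 and 113 and 100.4 CPM with both agents (0.37 ± 0.053, edgeR adjusted p = 1.22e-04), and was called under all 15 alternatives. With palmitate alone 23 of the 25 differences were positive, with a median of 0.070, against 50.2% positive and a median of 0.00053 over all genes. In that comparison edgeR called 1 (against 0.631% higher of all genes), Mthfd2 (0.22 ± 0.050, edgeR adjusted p = 0.0273, up to 0.349 without single libraries), and DESeq2 called 3. With A66 in palmitate-treated cells 1 was called higher and 3 lower (against 0.973% and 1.84% of all genes), with 13 of the 25 differences positive and a median of 0.020. The higher call was Atf3 (0.38 ± 0.096, edgeR adjusted p = 0.0309), which was lost with DESeq2 (adjusted p = 0.260), without palmitate replicate 2 (0.412) and without either library given both agents (0.215 and 0.0653). The lower calls were Ddit4 (-0.44 ± 0.082, edgeR adjusted p = 0.00316), Nupr1 (-0.17 ± 0.040, edgeR adjusted p = 0.0163) and Slc7a5 (-0.18 ± 0.043, edgeR adjusted p = 0.0189), the last named after its value was seen. Without palmitate replicate 2 the adjusted p was 0.0705 for Ddit4 and 0.139 for Nupr1, and that of Slc7a5 reached 0.227 over the alternatives. With A66 alone 2 were called, both lower (against 0.638% of all genes), Nupr1 (-0.30 ± 0.040, edgeR adjusted p = 2.36e-04), under all 15 alternatives, and Slc7a5 (-0.26 ± 0.044, edgeR adjusted p = 0.00309), which was lost without A66 replicate 1 (adjusted p = 0.109). Of the 25 differences 18 were negative and 7 positive, with a median of -0.065, against 48.5% positive and a median of -0.0040 over all genes.

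Of 16 heat shock genes, the same 3, Hspa4l, Hsp90aa1 and Hsph1, were called higher both with A66 in palmitate-treated cells and with palmitate in A66-treated cells, and 0 were called lower, where 0.973% and 1.46% of all genes were called higher. Hspa4l, a chaperone of the HSP110 family, had 58.1 and 58.4 CPM with A66, 66.1 and 58.2 CPM with palmitate and 80.8 and 71.1 CPM with both agents. Its differences were 0.29 ± 0.059 (edgeR adjusted p = 0.00725) for A66 and 0.38 ± 0.060 (edgeR adjusted p = 4.14e-04) for palmitate. Hsp90aa1, the inducible chaperone HSP90α, gave 0.23 ± 0.044 (edgeR adjusted p = 0.00443) and 0.27 ± 0.044 (edgeR adjusted p = 6.89e-04) in the same order. Hsph1, named after its value was seen, gave 0.21 ± 0.049 (edgeR adjusted p = 0.0206) and 0.27 ± 0.050 (edgeR adjusted p = 0.00248). For A66 the calls were lost without palmitate replicate 2 (adjusted p of 0.169, 0.0951 and 0.321), and those of Hspa4l and Hsph1 also without palmitate plus A66 replicate 1 (0.186 and 0.297). For palmitate those of Hspa4l and Hsp90aa1 held under all 15 alternatives, and that of Hsph1 was lost without A66 replicate 1 (0.0603) or palmitate plus A66 replicate 1 (0.106).

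**Figure D4:**
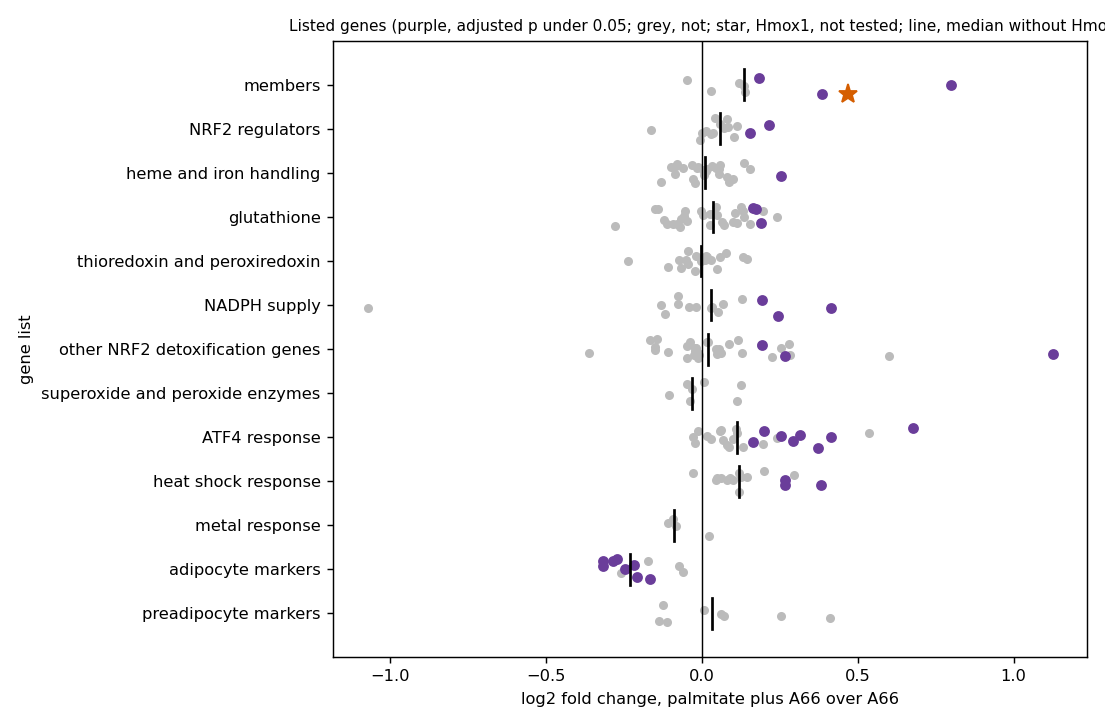
Log2 fold change of palmitate plus A66 over A66 (horizontal axis) for each tested gene of the lists, with purple for an adjusted p under 0.05 in edgeR, grey for the rest, a star for Hmox1 (not tested) and a line for the median. The ATF4 list holds 8 genes called higher, and the adipocyte markers hold 8 called lower with a median of -0.23.

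Adipocyte markers were called lower in 3 of the 4 comparisons. Of 12 tested, 8 were called lower and 0 higher with palmitate in A66-treated cells (median log2 difference -0.23), 3 lower with A66 in palmitate-treated cells, 1 lower with palmitate alone and 0 with A66 alone (edgeR, with 3 at an unadjusted p under 0.05, and 0 by DESeq2). Of all genes 1.27%, 1.84%, 0.542% and 0.638% were called lower in the same order. In the first of these comparisons DESeq2 called 5, and edgeR 1 without A66 replicate 1, 5 without A66 replicate 2 and 1 without palmitate plus A66 replicate 1. In the second edgeR called 1 without palmitate replicate 2, 1 without palmitate plus A66 replicate 1 and 5 without palmitate replicate 1. With palmitate alone the count was 0 without palmitate replicate 1 or any 1 untreated or A66 library, and 4 without palmitate replicate 2. Their summed level was 18858 to 18919 CPM untreated, 18549 to 19297 CPM with A66, 16699 to 17780.4 CPM with palmitate and 16150.5 to 17279.8 CPM with both agents. Their part in the rise of Slc7a11, Srxn1 and Gclm and in the Hmox1 values was not tested.

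By correlation of log2 CPM over the 8 libraries, the genes most like Hmox1 among 92 with a mean of at least 5 CPM and an SD of at least 0.25 were Slc7a11 (0.89), Sh2d6 (0.89), Atf3 (0.88), Ptgs2 (0.86) and Ampd3 (0.81). Srxn1, at 0.92, and Gclm, at 0.81, had correlations above that of Ampd3 but an SD of 0.163 and 0.107, under a limit that Hmox1 itself, at 0.187, did not reach. These correlations are a description, over the same 8 libraries. Atf3, a stress-induced transcription factor, had 16.1 and 20.8 CPM untreated, 19.1 and 18.8 CPM with A66, 25.9 and 20.6 CPM with palmitate and 31.4 and 29.3 CPM with palmitate plus A66. Ampd3, an AMP deaminase, had 13.1 and 12.3 CPM untreated, 13.5 and 14.7 CPM with A66, 15.4 and 12.3 CPM with palmitate and 24.3 and 18.8 CPM with palmitate plus A66. Ptgs2, the inducible cyclooxygenase, had 5.84 and 6.86 CPM untreated, 6.91 and 6.82 CPM with A66, 7.85 and 6.77 CPM with palmitate and 10.2 and 8.81 CPM with palmitate plus A66. In all 5 genes the libraries with palmitate plus A66 were the highest of the 8, as they were for Hmox1. The 5 genes were picked for likeness to Hmox1 over these libraries, so nothing is read from this shared order. The A66 libraries, below the untreated ones for Hmox1, overlapped them for Slc7a11, Sh2d6, Atf3 and Ptgs2 and lay above them for Ampd3.

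**Figure D5:**
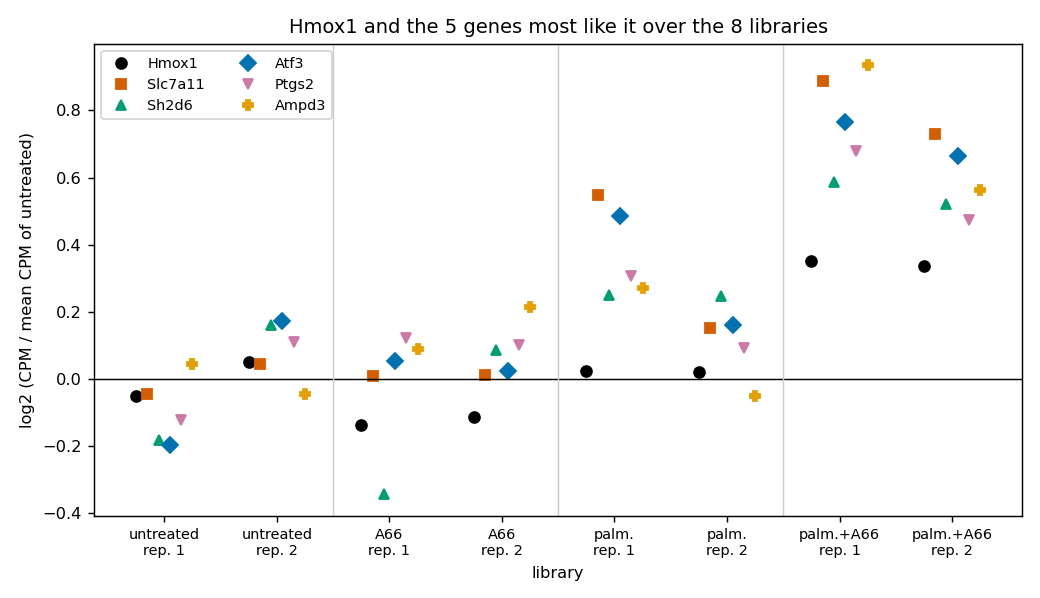
Log2 of CPM over the mean CPM of the untreated libraries (vertical axis) in each of the 8 libraries (horizontal axis) for Hmox1 (black circles) and the 5 genes that correlate best with it among those with a mean of at least 5 CPM and an SD of at least 0.25, a limit that leaves out Srxn1. All 6 genes are highest in both libraries with palmitate plus A66, while in the A66 libraries Hmox1 lies below 0.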

How the data were processed

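Poly(A) RNA of 8 libraries of 3T3-L1 adipocytes was sequenced. The authors aligned reads to GRCm38 with TopHat2 2.0.11, counted them with HTSeq and deposited the raw counts of each gene, with no normalization. The strand setting and annotation release of the counting are not given in the sources used here. Columns of the authors' own DESeq2 comparison (fold changes and p-values) were not used. Of 43629 genes, 42462 matched a symbol in GENCODE M21 (GRCm38), which gave positions and merged exon lengths. Groups follow the treatment label. A single model of all 8 libraries was fitted with edgeR 4.0.16 (R 4.3.3), with TMM, filterByExpr (minimum count 10), quasi-likelihood tests and Benjamini-Hochberg adjustment. Comparisons were A66 over untreated, palmitate over untreated, palmitate plus A66 over palmitate and over A66, and the interaction. Alternatives were RLE and library-size scaling, 2 other filters, DESeq2 1.42.0, fits of the compared groups only, the replicate number as a block, and each library left out. DESeq2 gave an adjusted p to 3275 genes for the interaction and to 8365 to 11759 in the other comparisons. A gene without one was counted as not called by DESeq2. The model was tested on simulated counts, with 200 of 14397 genes raised by 0.5 on the log2 scale in the group with both agents. For A66 with palmitate, palmitate with A66 and the interaction it called 190, 188 and 164 genes. Of these, 172, 174 and 147 had been changed, and the rest were false calls. For A66 alone and palmitate alone, where 0 were changed, it called 2 and 1. Smaller changes were not simulated.

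The members and lists were chosen with earlier results of these data known. Genes named were the 9 members, Nfe2l2, Keap1, Bach1, Hmox2, up to 2 genes with the smallest p among the called genes of each list and comparison, of which not all are given, and the 5 genes most like Hmox1 with an SD of log2 CPM of at least 0.25. Exceptions are marked where they stand. Limits of detection cover counting error only.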

Additional observations from a re-analysis of the deposited data

Results flagged for a closer look

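Hmox1 was marked for a closer look because its A66 effects differed between cells with and without palmitate. The difference was 0.45 ± 0.059 (SE) on the log2 scale, with 355 CPM against 387 CPM for A66 and untreated cells and 492 CPM against 393 CPM for the same step in palmitate-treated cells. Hmox1 was chosen for this difference, which is therefore a description. Groups of 2 libraries are too small for a check of single libraries that stand apart.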

How the results depend on the processing

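With 2 libraries a group, a single library could decide a call, and a group left with 1 library was assumed to vary like the others. With each library left out, the difference of A66 effects of Hmox1 was 0.39 to 0.50, its A66 effect without palmitate -0.18 to -0.073 and its palmitate effect without A66 -0.028 to 0.075. The genes called numbered 42 to 268 for A66, 71 to 245 for palmitate, 147 to 494 for A66 in palmitate-treated cells, 107 to 502 for palmitate in A66-treated cells and 0 to 10 for the interaction, with 0 without A66 replicate 1 and 10 without untreated replicate 2. Without the filter on low counts these were 403, 396, 652, 664 and 91. In fits of the compared groups only, palmitate in A66-treated cells had 689 calls. The interaction had 2 calls with library-size scaling, 8 with DESeq2 (of the 3275 genes to which it gave an adjusted p) and 3 with the replicate block, which changed no call of a member. Deviations of same-numbered libraries correlated by -0.082 to 0.11 across 11957 genes. The sources used here name no pairing of these libraries. With 2 libraries a group, these correlations cannot settle whether a culture or day was shared. Library-size scaling gave 84 higher and 108 lower against 116 higher and 93 lower for A66, 107 higher and 350 lower against 142 higher and 268 lower for A66 in palmitate-treated cells, and 180 higher and 266 lower against 213 higher and 185 lower for palmitate in A66-treated cells. For palmitate alone the same scaling gave 83 higher and 105 lower against 92 higher and 79 lower.

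Members called, other than Hmox1, numbered 0 to 1 for palmitate, 0 to 5 for A66 in palmitate-treated cells and 2 to 3 for palmitate in A66-treated cells with libraries left out. Without the filter 1 was called for palmitate (Slc7a11) and 1 for the interaction (Srxn1, 0.26, adjusted p = 0.0223), and Srxn1 also passed for A66 in palmitate-treated cells (adjusted p = 0.0213). Genes called over the lists other than cell markers numbered 1 to 11, 1 to 10, 4 to 18 and 7 to 23 in the 4 comparisons with libraries left out. Values near 0 changed sign. With library-size scaling Gclm had -0.0019 for palmitate, Slc7a11 -0.0046 for A66 and Gsr -0.017 for A66 in palmitate-treated cells. That of Gsr was -0.0020 without the filter, and that of Osgin1 0.00083 with at least 10 counts in every library. With libraries left out, A66 in palmitate-treated cells gave -0.12 to 0.053 for Nqo1, -0.024 to 0.027 for Gsr and -0.13 to 0.11 for Osgin1. Palmitate in A66-treated cells gave -0.059 to 0.11 for Nqo1 and -0.17 to 0.090 for Osgin1. Palmitate gave -0.035 to 0.053 for Gclm and -0.039 to 0.10 for Txnrd1, and A66 gave -0.034 to 0.057 for Slc7a11. Of 68 calls of listed and most alike genes, 54 were lost without at least 1 library, 19 were lost under another alternative, 14 held under every alternative and 0 changed direction. Among those lost with library-size scaling were Sqstm1 (adjusted p = 0.103), Abcc1 (0.0768) and Ephx2 (0.0692) for A66 in palmitate-treated cells, Nfe2l1 (0.0701), Slc3a2 (0.0629) and Abcc4 (0.0655) for palmitate in A66-treated cells and Gsta4 (0.0667) for A66. Fits of the compared groups only ended Sqstm1 for A66 in palmitate-treated cells (0.0989) and Slc40a1 (0.0584), Abcc5 (0.0976) and Gsta4 (0.0543) for palmitate. The cause of these changes was not tested.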

Other observations

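Mt2, a metallothionein, fell with A66 in both settings. Of 4 genes of the metal response tested, edgeR called 1 lower with A66 alone and 2 lower with A66 in palmitate-treated cells. Of all genes 0.638% and 1.84% were called lower in these comparisons. With palmitate alone and with palmitate in A66-treated cells edgeR called 0 of the 4, against 1.17% and 2.73% of all genes. Mt2 had 39.4 and 41.0 CPM untreated, 30.4 and 32.5 CPM with A66, 37.9 and 37.0 CPM with palmitate and 31.3 and 27.7 CPM with palmitate plus A66. It fell with A66 without palmitate (-0.35 ± 0.063, edgeR adjusted p = 0.00387) and with it (-0.34 ± 0.063, edgeR adjusted p = 0.00304), with the calls lost without A66 replicate 1 (0.120) and without palmitate plus A66 replicate 2 (0.0878). Mt1 fell with A66 in palmitate-treated cells (-0.29 ± 0.050, edgeR adjusted p = 0.00184, and 0.0617 without palmitate replicate 2). Of 8 preadipocyte markers tested, Col1a1, a collagen gene named after its value was seen, had 631 and 626 CPM untreated, 586 and 595 CPM with A66, 717 and 773 CPM with palmitate and 576 and 609.5 CPM with palmitate plus A66. Col1a1 rose with palmitate (0.25 ± 0.044, edgeR adjusted p = 0.00331) and fell with A66 in palmitate-treated cells (-0.33 ± 0.044, edgeR adjusted p = 1.75e-04), under all 15 alternatives, up to adjusted p of 0.0287 and 0.00630. It was the single edgeR call of the list in each of these comparisons, against 0.631% called higher and 1.84% called lower of all genes, and DESeq2 called 1 and 3. Over the list 6 of 8 differences were positive for palmitate (-0.19 to 0.25, median 0.035), against 50.2% positive over all genes. For A66 in palmitate-treated cells 6 of 8 were negative and 2 positive (-0.33 to 0.37, median -0.089), against 49.7% positive over all genes. With A66 alone and with palmitate in A66-treated cells edgeR called 0 of the 8, against 1.43% and 2.73% of all genes. At an unadjusted p under 0.05 edgeR gave 2 and 3, against 12% and 14.6% of all genes, and DESeq2 called 0. A count of 0 in a list this short is near the background and is not a result about these genes.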
